A study of Canis lupus familiaris with 12 samples.

Results

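The genes described here encode parts of the mitochondrial respiratory machinery, of the mitochondrial ribosome and of the protein import complexes. They were chosen by name: every probe with a single gene symbol that starts with NDUF, SDHA to SDHD, UQCR, a COX symbol of the nuclear-encoded subunit series, ATP5, MRPL, MRPS, TIMM or TOMM. This gave 87 of 8047 probes with 1 symbol, and 66 of 4325 genes. The 66 genes comprise 14 complex I subunits, 3 complex I assembly factors, 2 complex II subunits, 1 complex II assembly factor (SDHAF2), 4 subunits each of complexes III and IV, and 8 genes of ATP synthase. They also comprise 15 proteins named for the large and 9 named for the small mitochondrial ribosomal subunit, 1 antisense RNA of a ribosomal gene (MRPL20-AS1) and 5 import proteins.

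Complexes I to IV pass electrons from NADH and succinate to oxygen. Complexes I, III and IV pump protons across the inner mitochondrial membrane, and ATP synthase uses that gradient to make ATP. Most of their subunits are encoded in the nucleus, made in the cytosol and brought in through the TOM and TIM complexes, while a small core set is encoded in mitochondrial DNA and translated by the mitochondrial ribosome. Kidney tubule epithelium is known as a tissue rich in mitochondria.

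MDCK is an epithelial cell line from dog kidney. MDCK cells transfected with Snail, with Slug or with E47 were set against MDCK-CMV cells, their controls, and the RNA of both was hybridised together on 2-colour cDNA arrays with probes named for human genes. The 3 factors bind DNA and are known as repressors of the E-cadherin gene, CDH1. Each transfectant has samples numbered 1 and 2, each hybridised once with its RNA titled Cy5 and once titled Cy3, so there are 4 arrays per transfectant and 12 arrays in all. The labels do not say whether a transfectant is 1 clone, whether samples 1 and 2 are separate cultures, or whether the control RNA was 1 pool, so the p-values cover no more than the spread among these samples.

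All values are log2 ratios of transfectant over control, so they are differences and not levels, and they carry no information on which of 2 genes is more abundant. The labels do not say which channel is the numerator, and as deposited most arrays of 1 dye and 1 transfectant ran in opposite senses. Over all probes, r between samples 1 and 2 was -0.59 for Snail, -0.46 for Slug and -0.61 for E47 on the arrays titled Cy5. On those titled Cy3 it was -0.37 for Snail, -0.48 for Slug and 0.42 for E47. The 2 arrays of Snail 2, the 2 arrays of Slug 1 and the E47 2 array titled Cy5 were therefore multiplied by -1, which puts CDH1 below the control in every transfectant. This direction is assumed throughout. If it is wrong for a transfectant, each of its ratios against the control keeps its size and p-value and takes the opposite sign, and only the agreement or opposition of genes within that transfectant stays as given. Between 61 and 66 of the 66 genes had a value on an array. With so few arrays, their number sets the precision. In bulk RNA, fewer cells of a type and less RNA per cell cannot be told apart.

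A replicate is the mean of both arrays of a numbered sample, with neither missing, which leaves 2 replicates per transfectant. Each transfectant was tested against 0 (no difference from the control) and each pair against each other with limma, and a gene was called where the Benjamini-Hochberg adjusted p over all genes tested was under 0.05. Of the 66 genes, 65 were tested in at least 1 comparison and 55 in all 6. Across those of the 66 genes with both values, Pearson's r between samples 1 and 2 was 0.54 for Snail, 0.78 for Slug and 0.47 for E47. Over all genes it was 0.65 for Snail, 0.72 for Slug and 0.73 for E47. These values were taken after the signs were turned, and their positive sign rests on that step. Genes are not independent replicates, and no p is given. All 3 comparisons are with RNA of MDCK-CMV cells, and the labels do not say whether it was the same RNA throughout. If it was, the 3 comparisons are not independent of each other.

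Against the control, the Slug transfectant had the most changes among these genes: 20 of 62 tested passed, 14 lower and 6 higher. That is 32.3%, where 21.8% of all genes tested passed. The lower calls made up 22.6% of the 62 genes, against 9.62% of all genes, and the higher calls 9.68%, against 12.2% of all genes. In Snail, 2 of 58 genes passed, both lower (3.45%), where 7.22% of all genes passed, 5.07% lower and 2.15% higher. In E47, 2 of 62 passed, both lower (3.23%), where 5.30% of all genes passed, 1.49% lower and 3.81% higher. Neither Snail call held without Snail replicate 1 or without Snail replicate 2. With the numbered sample as a random block the Snail count was 9 of 58 (7 higher, 2 lower), and over all genes 585 of 3768 passed, 194 of them higher. With Snail alone in the fit it was 10 of 58 (6 higher, 4 lower), and over all genes 568 of 3768 passed, 197 of them higher. Neither E47 call held without E47 replicate 1 or without E47 replicate 2. The median log2 ratio of the tested genes was 0.03 in Snail, -0.13 in Slug and -0.10 in E47, beside -0.05, 0.02 and 0.01 over all genes tested.

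**Figure D1:**
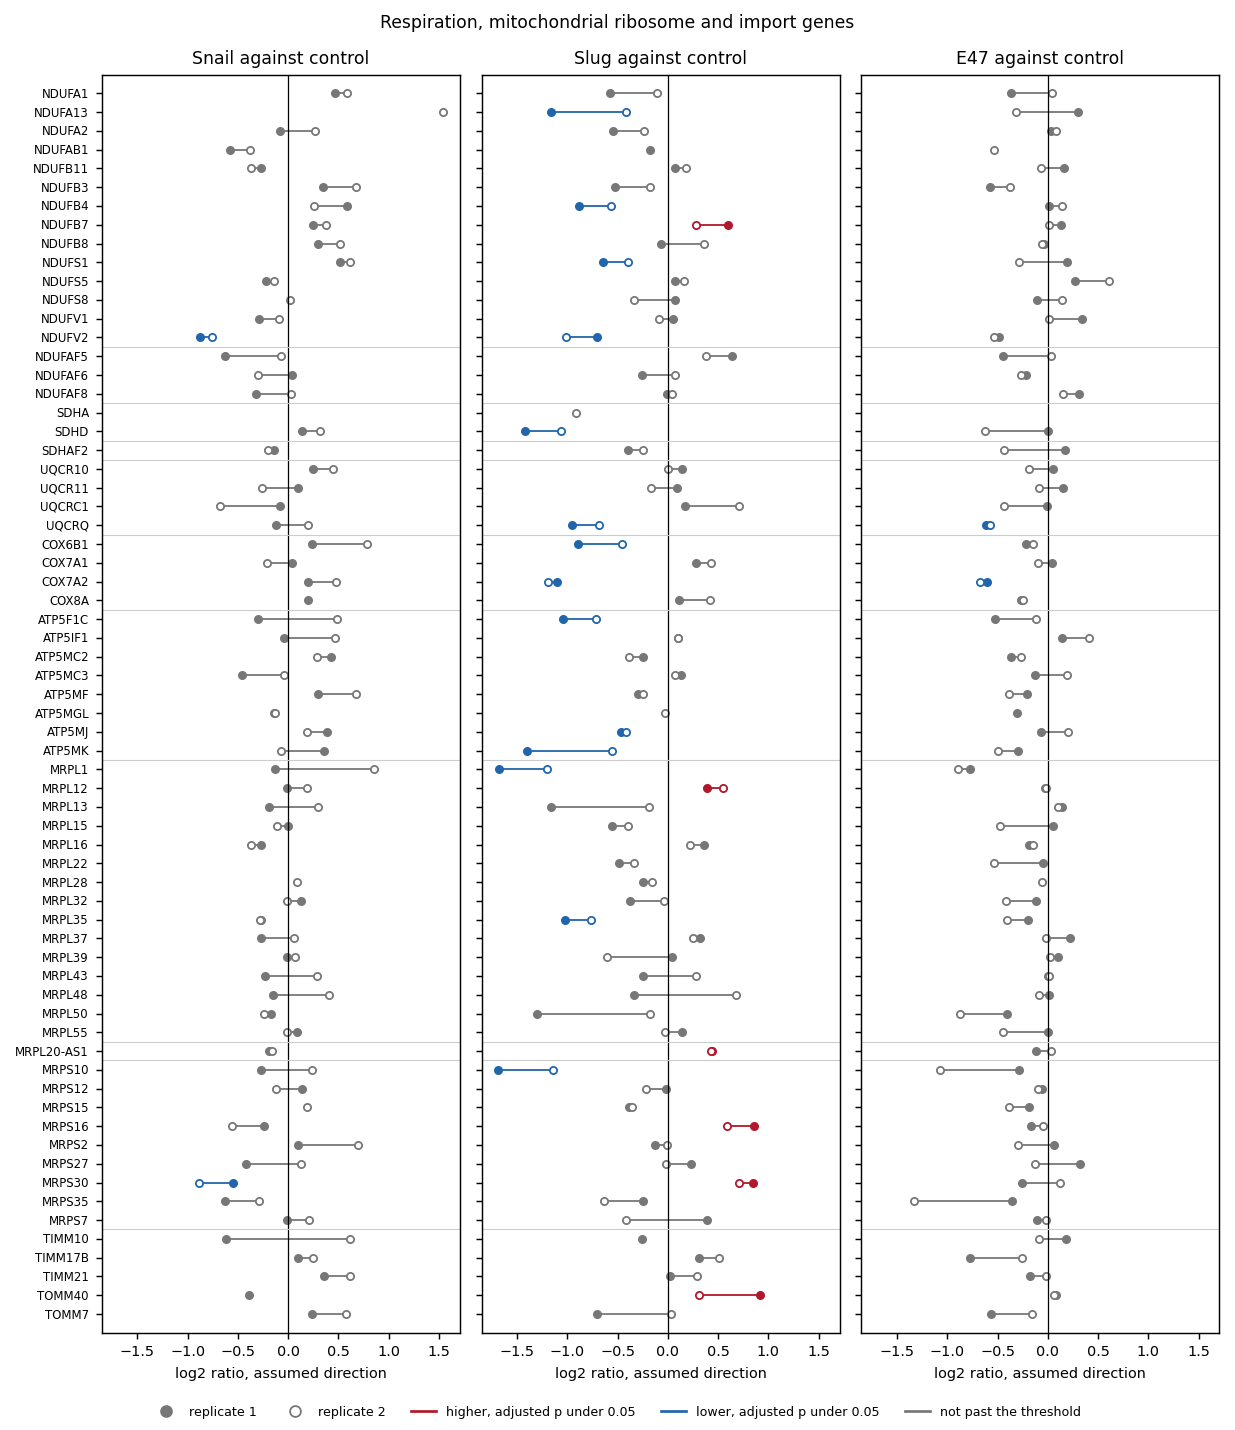
Log2 ratio against the control (horizontal axis, assumed direction) of each of the 66 respiration, mitochondrial ribosome and import genes (rows, by role), in panels for Snail, Slug and E47; filled and open points are replicates 1 and 2, joined by a line, and colour marks genes called lower (blue) or higher (red) by limma. Slug has 14 blue and 6 red genes, with MRPL1 and MRPS10 the farthest to the left, while Snail and E47 have 2 blue genes each.

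The lower calls in Slug lay mostly among respiratory genes. Of 29 genes of complexes I to IV and ATP synthase tested in Slug, 11 were lower (37.9%) and 1 was higher (3.45%), with a median of -0.32. This set, called respiratory subunits below, includes the inhibitor ATP5IF1. It leaves out CYC1 of complex III, which lies outside the name rule and was called higher in Slug. Over all genes tested in Slug, 9.62% were lower and 12.2% higher. The 24 mitochondrial ribosomal proteins had 3 lower and 3 higher (12.5% each), near those shares, and a median of -0.16. In Snail, 1 of 28 respiratory subunits was lower (3.57%, against 5.07% of all genes) and the median was 0.18. In E47, 2 of 29 were lower (6.9%, against 1.49% of all genes) and the median was -0.05. These shares were not compared by a test. The Slug calls depended on sample 1: without Slug replicate 1 most of the 20 were lost, and COX7A2, MRPL35, NDUFV2 and SDHD kept theirs. Calls over all genes in Slug fell as well without that replicate. With all arrays scaled to 1 spread, 11 of the 20 calls stayed, 9 lower and 2 higher. Over all genes, 436 of 4053 then passed, 255 of them higher. The Slug arrays had the widest spread, with SDs of 0.64 to 0.695 over all probes, against 0.446 to 0.586 on the other arrays.

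Per-array values below are given in the order sample 1 titled Cy5, sample 1 titled Cy3, sample 2 titled Cy5, sample 2 titled Cy3.

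Complex I takes electrons from NADH, which binds at its matrix arm. NDUFV2, an iron-sulfur subunit of that NADH-binding part, had log2 ratios of -0.88, -0.88, -0.74 and -0.77 on the Snail arrays, -0.35, -1.05, -1.18 and -0.85 on the Slug arrays and -0.60, -0.36, -0.54 and -0.54 on the E47 arrays. It lay below the control on all 12 arrays. Its mean was -0.82 in Snail (SE 0.13, adjusted p = 0.00952, 1.76-fold lower), -0.86 in Slug (SE 0.13, adjusted p = 0.00409, 1.81-fold lower) and -0.51 in E47 (SE 0.13, adjusted p = 0.0654), so it was called in Snail and Slug and not in E47. NDUFV2 also had the lowest mean over the 3 transfectants of the complex I genes measured in all of them. Its fellow subunit of the NADH-binding part, NDUFV1, which carries the FMN site, was not called in any comparison.

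NDUFS1, the largest iron-sulfur subunit, went to opposite sides in Snail and Slug. It had 0.78, 0.26, 0.68 and 0.55 on the Snail arrays, -0.80, -0.50, -0.22 and -0.57 on the Slug arrays and 0.54, -0.16, -0.22 and -0.36 on the E47 arrays. The Snail and Slug arrays did not overlap, and the E47 arrays spanned both sides. The Slug mean of -0.52 passed (SE 0.15, adjusted p = 0.0414), and the Snail mean of 0.57 did not (SE 0.15, adjusted p = 0.0643). The Slug call was lost in 10 of 16 alternatives.

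Of the accessory subunits, which surround the catalytic core, NDUFB4 had 0.74, 0.43, 0.78 and -0.26 on the Snail arrays, -1.13, -0.63, -0.42 and -0.71 on the Slug arrays and 0.22, -0.20, 0.26 and 0.03 on the E47 arrays. Every Slug array lay below every Snail and E47 array. Its Slug mean was -0.72 (SE 0.14, adjusted p = 0.011, 1.65-fold lower). NDUFA13, also known as GRIM-19, had -1.51, -0.81, 0.01 and -0.85 on the Slug arrays and -0.05, 0.64, -0.29 and -0.34 on the E47 arrays. The Slug mean of -0.79 (SE 0.22, adjusted p = 0.0428) passed with 1 of 4 arrays at 0.01, and sample 2 alone gave -0.42. In Snail only sample 2 had values, 1.54 and 1.56, so no Snail test was made.

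NDUFB7 was the single complex I subunit called higher, and the one with the highest mean over the 3 transfectants. It had 0.38, 0.13, 0.51 and 0.24 on the Snail arrays, 0.67, 0.54, 0.09 and 0.48 on the Slug arrays and 0.39, -0.12, -0.06 and 0.07 on the E47 arrays. The Snail and Slug arrays all lay above 0 and overlapped each other. The Slug mean was 0.44 (SE 0.13, adjusted p = 0.0457), and the call was lost in 12 of 16 alternatives run.

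NDUFA1 and NDUFB3 were called between Snail and Slug but not against the control. NDUFA1 had 0.50, 0.44, 0.66 and 0.51 on the Snail arrays, -0.63, -0.53, -0.44 and 0.22 on the Slug arrays and -0.55, -0.19, -0.11 and 0.19 on the E47 arrays. NDUFB3 had 0.47, 0.23, 0.90 and 0.45 on the Snail arrays, -0.51, -0.56, -0.59 and 0.23 on the Slug arrays and -0.54, -0.62, -0.49 and -0.27 on the E47 arrays. For both genes the Slug 2 array titled Cy3 stood on the Snail side of 0 while the other 3 Slug arrays lay below it. The adjusted p against the control was 0.0898 for NDUFA1 and 0.0773 for NDUFB3 in Snail, 0.163 and 0.122 in Slug, and 0.643 and 0.109 in E47.

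The other complex I genes (NDUFA2, NDUFAB1, NDUFB8, NDUFB11, NDUFS5, NDUFS8 and NDUFV1) were not called in any comparison in which they were tested. None of the 3 assembly factors passed. NDUFAF8 had the highest mean over the 3 transfectants among them and NDUFAF6 the lowest, and the assembly factors' means lay between -0.35 and -0.13 in Snail, -0.10 and 0.51 in Slug, and -0.24 and 0.23 in E47.

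Complex II, succinate dehydrogenase, joins the citric acid cycle to the chain. SDHD, one of its membrane anchors, had 0.32, -0.04, 0.40 and 0.24 on the Snail arrays, -1.58, -1.26, -0.93 and -1.21 on the Slug arrays and 0.21, -0.21, -0.67 and -0.59 on the E47 arrays. All 4 Slug arrays lay below all Snail and E47 arrays. The Slug mean was -1.25 (SE 0.17, adjusted p = 0.00321), a ratio 2.37-fold lower than the control, beside 0.23 in Snail (adjusted p = 0.483) and -0.32 in E47 (adjusted p = 0.376). SDHD passed in Slug under every alternative run with these signs, between -1.42 and -1.04. SDHA, the flavoprotein subunit, is the 1 gene of the 66 that was never tested, because no transfectant had both replicates. SDHAF2, which helps attach the flavin to SDHA, was not called, with means of -0.17 in Snail, -0.32 in Slug and -0.13 in E47.

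Complex III passes electrons from ubiquinol to cytochrome c. UQCRQ, its ubiquinone-binding protein subunit, had -0.02, -0.22, 0.08 and 0.31 on the Snail arrays, -1.19, -0.73, -0.48 and -0.89 on the Slug arrays and -0.47, -0.77, -0.67 and -0.48 on the E47 arrays. The Slug and E47 arrays overlapped each other, and all 8 lay below the 4 Snail arrays. UQCRQ passed in Slug at -0.82 (SE 0.14, adjusted p = 0.00589) and in E47 at -0.60 (SE 0.14, adjusted p = 0.0472), and its Snail mean was 0.04 (adjusted p = 0.903). The E47 call was lost in 7 of 16 alternatives. The other complex III genes, UQCRC1, UQCR10 and UQCR11, were not called. UQCR10, with the highest mean over the 3 transfectants, had array values between -0.35 and 1.25 in Snail and between -0.59 and 0.60 in Slug, so the arrays of a transfectant lay on both sides of 0.

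Complex IV, cytochrome c oxidase, hands the electrons to oxygen. COX7A2, the form of subunit VIIa found in most tissues, had 0.00, 0.39, 0.39 and 0.56 on the Snail arrays, -0.84, -1.37, -1.49 and -0.89 on the Slug arrays and -0.66, -0.56, -0.58 and -0.78 on the E47 arrays. The 3 transfectants did not overlap: every Slug array lay below every E47 array, and every E47 array below every Snail array. The mean was -1.15 in Slug (SE 0.12, adjusted p = 0.00151, 2.22-fold lower) and -0.64 in E47 (SE 0.12, adjusted p = 0.0267, 1.56-fold lower), and 0.33 in Snail (SE 0.12, adjusted p = 0.152). The Slug call held under every alternative run with these signs, and the E47 call was lost in 4 of 16. COX7A2 is the gene with the lowest adjusted p of the 66 in Slug and in E47.

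COX7A1, the form of the same subunit known from heart and skeletal muscle, did not follow it: its array values lay between -0.25 and 0.28 in Snail, between 0.27 and 0.52 in Slug and between -0.20 and 0.29 in E47, and it was not called. The 2 genes are close relatives, and how well a human probe separates their dog transcripts was not tested. COX6B1, which links the 2 monomers of the enzyme, had 0.28, 0.20, 0.79 and 0.79 on the Snail arrays, -1.05, -0.75, -0.56 and -0.36 on the Slug arrays and -0.05, -0.38, 0.00 and -0.30 on the E47 arrays. The Snail and Slug arrays lay on opposite sides of 0. Its Slug mean of -0.68 passed (SE 0.17, adjusted p = 0.0257), and its Snail mean of 0.51 did not (adjusted p = 0.11). COX8A had no value on 2 of 4 Snail arrays and was not called elsewhere.

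ATP synthase consists of a catalytic head, a rotating stalk and a membrane part. ATP5F1C, the gamma subunit at the centre of the stalk, had -0.04, -0.57, 0.62 and 0.35 on the Snail arrays, -1.29, -0.80, -0.76 and -0.69 on the Slug arrays and -0.11, -0.94, -0.02 and -0.22 on the E47 arrays. The Slug arrays were the lowest apart from 1 E47 array at -0.94, and their mean of -0.88 passed (SE 0.20, adjusted p = 0.0202, 1.84-fold lower). ATP5MK, a small membrane subunit, had 0.57, 0.15, 0.37 and -0.52 on the Snail arrays, -1.43, -1.38, -1.39 and 0.27 on the Slug arrays and -0.18, -0.42, -0.66 and -0.34 on the E47 arrays. Its Slug mean was -0.98 (SE 0.21, adjusted p = 0.0146), but 1 Slug array lay at 0.27, and the replicates were -1.41 and -0.56.

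ATP5MJ, another small membrane subunit, had 0.67, 0.10, 0.17 and 0.21 on the Snail arrays, -0.34, -0.59, -0.64 and -0.18 on the Slug arrays and 0.57, -0.70, 0.28 and 0.12 on the E47 arrays. The Snail and Slug arrays lay on opposite sides of 0, and the Slug mean of -0.44 (SE 0.13, adjusted p = 0.043) lost its call in 12 of 16 alternatives. ATP5MF, a membrane subunit, had 0.47, 0.13, 0.73 and 0.61 on the Snail arrays, -0.40, -0.20, -0.33 and -0.16 on the Slug arrays and -0.18, -0.23, -0.23 and -0.54 on the E47 arrays. ATP5MC2, one of the genes of the proton-carrying c ring, had 0.42, 0.43, 0.63 and -0.06 on the Snail arrays, -0.36, -0.13, -0.04 and -0.73 on the Slug arrays and -0.47, -0.27, -0.38 and -0.15 on the E47 arrays. For both genes all Slug and E47 arrays lay below 0, and neither passed against the control.

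ATP5MC3, whose product is the same c subunit after its presequence is removed, ranged from -0.48 to 0.08 in Snail, -0.06 to 0.31 in Slug and -0.17 to 0.19 in E47, and was not called. ATP5IF1, the inhibitor of the enzyme when it runs in reverse, was not called either and had the highest mean of the group over the 3 transfectants, 0.22 in Snail, 0.10 in Slug and 0.28 in E47. ATP5MGL was tested in Snail alone, at -0.14; it closely resembles ATP5MG, and its signal cannot be assigned to it with certainty.

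**Figure D2:**
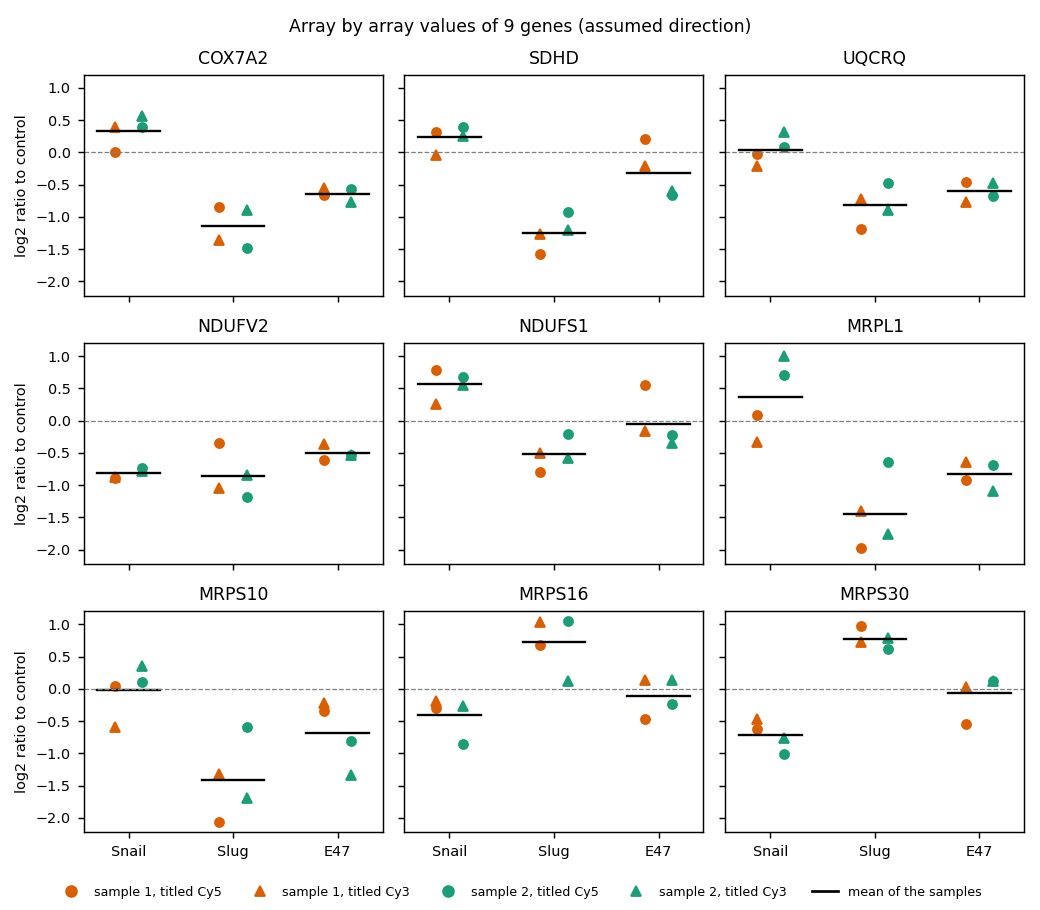
Log2 ratio against the control (vertical axis, assumed direction) on each array for 9 genes, by transfectant; colour marks the numbered sample, circles are arrays titled Cy5, triangles are arrays titled Cy3, and the bar is the mean of the samples. COX7A2 separates the 3 transfectants without overlap, NDUFV2 lies below 0 on every array, and MRPS16 and MRPS30 lie above 0 on every Slug array and below 0 on every Snail array.

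The mitochondrial ribosome translates the few proteins encoded in mitochondrial DNA. In Slug, MRPL1 of the large subunit and MRPS10 of the small subunit had the lowest means of all 66 genes. MRPL1 had 0.09, -0.34, 0.71 and 1.00 on the Snail arrays, -1.97, -1.39, -0.64 and -1.76 on the Slug arrays and -0.92, -0.63, -0.69 and -1.10 on the E47 arrays. MRPS10 had 0.05, -0.59, 0.11 and 0.36 on the Snail arrays, -2.07, -1.32, -0.60 and -1.69 on the Slug arrays and -0.35, -0.23, -0.81 and -1.34 on the E47 arrays. Both lay below the control on all 8 Slug and E47 arrays, and the Slug 2 array titled Cy5 was the highest Slug array for both.

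The Slug mean was -1.44 for MRPL1 (SE 0.23, adjusted p = 0.00484, 2.72-fold lower) and -1.42 for MRPS10 (SE 0.22, adjusted p = 0.00508, 2.67-fold lower). Without Slug replicate 1 the adjusted p was 0.0527 for MRPL1 and 0.0555 for MRPS10. In E47 the means were -0.84 for MRPL1 (adjusted p = 0.0802) and -0.68 for MRPS10 (adjusted p = 0.136), which did not pass.

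MRPL35, a large-subunit protein, had -0.37, -0.17, -0.11 and -0.45 on the Snail arrays, -0.98, -1.07, -1.15 and -0.39 on the Slug arrays and -0.18, -0.22, -0.53 and -0.28 on the E47 arrays. It lay below 0 on all 12 arrays and passed in Slug at -0.90 (SE 0.13, adjusted p = 0.00342, 1.86-fold lower). MRPL12, known for a second role at the mitochondrial RNA polymerase, went the other way in Slug, with 0.24, 0.55, 0.56 and 0.54, and had 0.18, -0.20, 0.33 and 0.06 on the Snail arrays and 0.22, -0.27, 0.11 and -0.14 on the E47 arrays. Its Slug mean of 0.47 passed (SE 0.12, adjusted p = 0.029), with 8 of 16 alternatives losing the call.

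MRPS16, a small-subunit protein, had -0.30, -0.19, -0.85 and -0.27 on the Snail arrays, 0.68, 1.04, 1.05 and 0.12 on the Slug arrays and -0.47, 0.13, -0.23 and 0.13 on the E47 arrays. The Snail and Slug arrays lay on opposite sides of 0, and the Slug mean was 0.72 (SE 0.14, adjusted p = 0.0098, 1.65-fold higher). MRPS30, named for the small subunit but found in the large subunit of the mammalian ribosome, had -0.63, -0.46, -1.0 and -0.76 on the Snail arrays, 0.97, 0.73, 0.63 and 0.79 on the Slug arrays and -0.54, 0.03, 0.12 and 0.12 on the E47 arrays.

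MRPS30 is the only gene of the 66 called in opposite directions against the control, at -0.71 in Snail (SE 0.15, adjusted p = 0.028) and 0.78 in Slug (SE 0.15, adjusted p = 0.00968). Its 2 clones differed in size: one clone averaged -0.91 in Snail, 1.20 in Slug and -0.03 in E47, while the other averaged -0.52 in Snail, 0.35 in Slug and -0.11 in E47. With only the probes that had a value on all 12 arrays, MRPS30 was at -0.47 in Snail (adjusted p = 0.257) and 0.13 in Slug (adjusted p = 0.723), and both calls were lost.

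The antisense RNA MRPL20-AS1 had 0.13, -0.51, -0.63 and 0.31 on the Snail arrays, 0.66, 0.21, 0.74 and 0.11 on the Slug arrays and -0.21, -0.02, -0.09 and 0.16 on the E47 arrays. Its Slug mean of 0.43 passed (SE 0.12, adjusted p = 0.0343) and the call was lost in 9 of 16 alternatives. A double-stranded cDNA probe cannot tell it from overlapping RNA of the other strand. The remaining large-subunit genes (MRPL13, MRPL15, MRPL16, MRPL22, MRPL28, MRPL32, MRPL37, MRPL39, MRPL43, MRPL48, MRPL50 and MRPL55) and small-subunit genes (MRPS2, MRPS7, MRPS12, MRPS15, MRPS27 and MRPS35) were not called in any comparison. MRPL50 had -1.29 and -1.32 on the arrays of Slug sample 1, and -0.26 and -0.10 on those of sample 2.

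Among the import proteins, TOMM40, the channel of the outer membrane, had -0.30, -0.48 and 0.03 on 3 Snail arrays, 0.97, 0.87, 0.13 and 0.49 on the Slug arrays and -0.04, 0.20, -0.03 and 0.15 on the E47 arrays. The 4 Slug arrays lay above 0, and their mean of 0.61 passed (SE 0.17, adjusted p = 0.0414), with the call lost in 7 of 15 alternatives. Snail had 1 complete replicate and no test. TOMM7, TIMM10, TIMM17B and TIMM21 were not called, with TIMM21 the highest and TOMM7 the lowest by the mean over the 3 transfectants, where all had a mean. TOMM7 had 0.36, 0.11, 0.76 and 0.40 on the Snail arrays, -0.55, -0.87, -0.28 and 0.35 on the Slug arrays and -1.16, 0.03, -0.14 and -0.18 on the E47 arrays; the Slug arrays overlapped the others, and all Snail arrays lay above all E47 arrays.

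The direct comparison of Snail with Slug, which does not test either against the control, found 17 of 55 genes different: 14 were higher in Snail and 3 lower. That is 30.9%, where 13.2% of all genes tested passed. In the higher direction the share was 25.5%, against 4.08% of all genes, and in the lower direction 5.45%, against 9.14%. The 14 were NDUFA1, NDUFB3, NDUFB4, NDUFS1, SDHD, UQCRQ, COX6B1, COX7A2, ATP5MC2, ATP5MF, ATP5MJ, ATP5MK, MRPL1 and MRPS10, so 12 of 26 respiratory subunits tested and 2 of 21 ribosomal proteins. MRPS16, MRPS30 and MRPL20-AS1 were lower in Snail. The call of MRPL20-AS1 was lost in 15 of 16 alternatives, that of ATP5MC2 in 11, those of ATP5MF and ATP5MJ in 10 and that of ATP5MK in 9.

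COX7A2 differed by 1.48 (SE 0.18, adjusted p = 0.00504), which is 2.8-fold, and was called under every alternative run with these signs. The largest difference was that of MRPL1, 1.81 (SE 0.32, adjusted p = 0.0145), followed by SDHD at 1.48 (SE 0.25, adjusted p = 0.0128). MRPS30 differed by -1.49 (SE 0.21, adjusted p = 0.00784), but by -0.61 (adjusted p = 0.248) with only probes valued on all arrays, and MRPS16 by -1.12 (SE 0.19, adjusted p = 0.0138). In 13 of the 17 genes the 4 Snail and the 4 Slug arrays did not overlap, and in ATP5MC2, ATP5MK, MRPL20-AS1 and NDUFB3 they did. Of the 38 genes tested and not called, 34 overlapped. The 17 were picked by a test on these same arrays, so their separation is no separate support. The share without overlap among all genes was not counted. Without Slug replicate 1 most of the 17 calls were lost, and COX7A2, MRPS30 and SDHD kept theirs. Most were also lost without Snail replicate 1 and without Snail replicate 2. Calls over all genes fell as well in these settings.

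This comparison depends on the assumed signs, since turning 1 transfectant changes the difference. With the sign of Snail turned, 7 of 55 genes passed, 6 higher and 1 lower. Over all genes, 671 of 3675 then passed, 363 of them higher. For both directions together, the share of these genes was then below that of all genes. Of the 7, 4 were among the 17: COX7A2 (0.81, adjusted p = 0.0179), MRPS10 (1.43, adjusted p = 0.0194), SDHD (1.01) and UQCRQ (0.78). The other 3 were MRPL35 (1.17), NDUFV2 (1.68) and NDUFB7 (-0.76). COX7A2, SDHD, UQCRQ and MRPS10 thus differed from Slug, in the same direction, with either sign of Snail and the sign of Slug kept. Their Snail means were 0.33, 0.23, 0.04 and -0.02, nearer 0 than their Slug means of -1.15, -1.25, -0.82 and -1.42. Turning Snail could therefore not change the direction, and its persistence is no separate support.

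**Figure D3:**
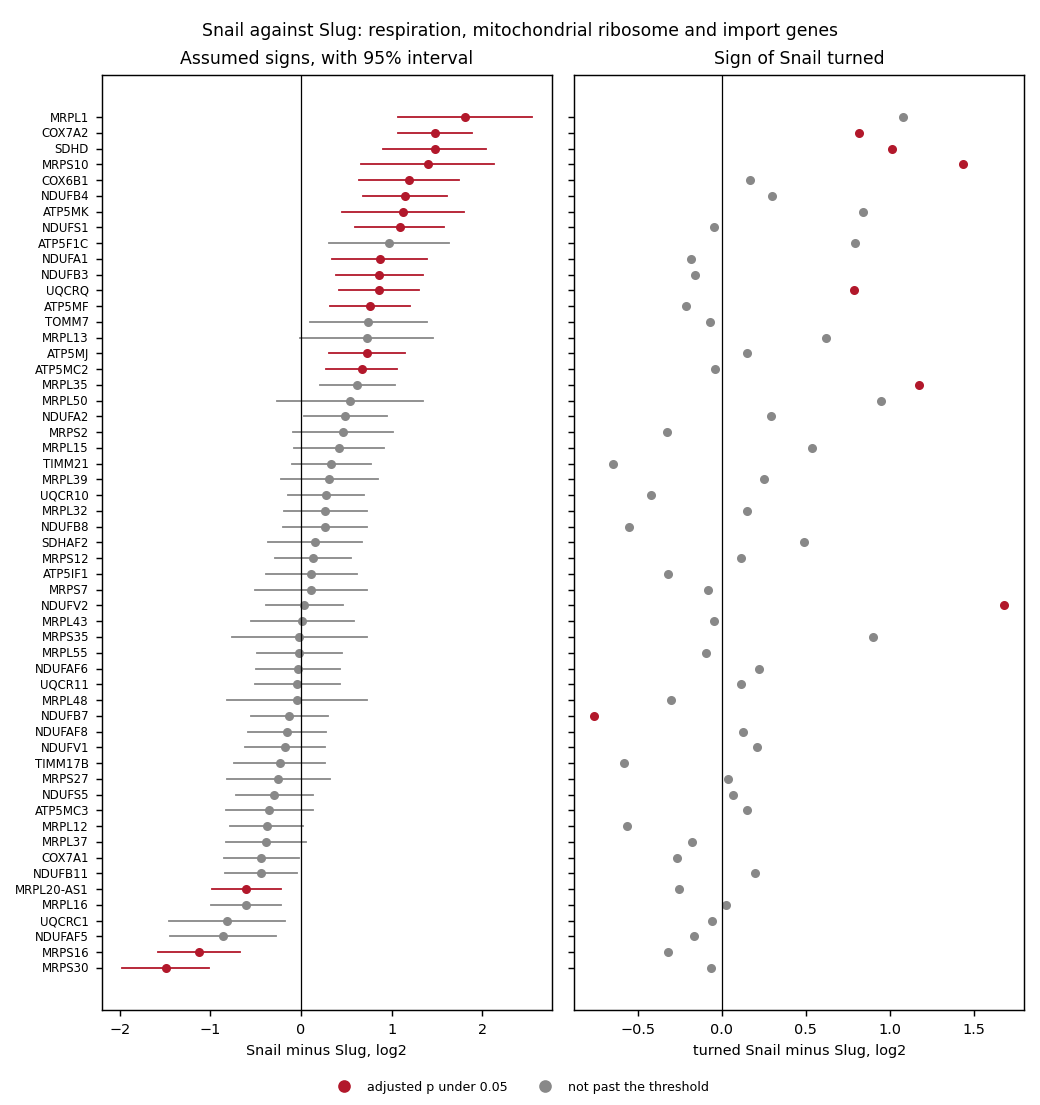
Difference of Snail minus Slug on the log2 scale for the 55 genes tested (rows), with the assumed signs and the 95% interval of limma in the left panel and with the sign of Snail turned in the right panel; red marks an adjusted p under 0.05. COX7A2, SDHD, MRPS10 and UQCRQ are red and right of 0 in both panels, and NDUFV2 is near 0 on the left and at 1.68 on the right.

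Between Snail and E47, 1 of 56 genes passed, where 2.57% of all genes passed, 0.166% higher in Snail and 2.41% lower. It was COX7A2, higher in Snail by 0.98 (SE 0.18, adjusted p = 0.0364, 1.97-fold), with all 4 Snail arrays above all 4 E47 arrays. Without a replicate of Snail or of E47 no gene passed. NDUFB3, at 0.99 (adjusted p = 0.051), did not pass. With the sign of Snail turned, MRPS35 and NDUFV2 passed and COX7A2 did not. Between Slug and E47, 0 of 61 genes passed in limma, where 0.786% of all genes passed (0.262% higher in Slug and 0.524% lower). At an unadjusted limma p under 0.05 were 17 of the 61, and 618 of 3816 genes over all genes tested. For SDHD the difference of Slug and E47 was -0.93 (95% interval -1.50 to -0.36, adjusted p = 0.127), and for COX7A2 -0.51 (-0.91 to -0.10, adjusted p = 0.224), so these data do not show that the 2 transfectants are alike. With the sign of Slug turned, 18 of the 61 passed.

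Other genes of mitochondrial and energy metabolism were followed through lists drawn up by function. Over all genes tested, 12.2% were higher and 9.62% lower in Slug. The shares were 2.15% higher and 5.07% lower in Snail, and 3.81% and 1.49% in E47. The lists are short, and their counts were not compared with these shares by a test. Of 8 genes on the array for cytochrome c, assembly factors and related electron carriers, Slug had 1 lower, CYCS (cytochrome c, -1.07, adjusted p = 0.011), and 2 higher, CYC1 (cytochrome c1 of complex III, 0.68, adjusted p = 0.00794) and COQ10A (a coenzyme Q-binding protein, 0.89, adjusted p = 0.0125). Snail and E47 had 0 of 8 called in limma, with 2 of 8 in each at an unadjusted p under 0.05. Over all genes tested, 917 of 3768 in Snail and 811 of 3966 in E47 were under that unadjusted p. No subunit encoded in mitochondrial DNA was among the 8.

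Of 11 glycolysis genes, Slug had 4 higher (36.4%, against 12.2% of all genes) and 1 lower (9.09%, against 9.62%). The higher ones were ALDOA (aldolase A, 1.45), PKM (pyruvate kinase, 1.39), SLC2A1 (the glucose transporter GLUT1, 0.65) and PGK1 (phosphoglycerate kinase, 0.48), and the lower one was SLC2A3 (the glucose transporter GLUT3, -2.03). E47 had 3 of 11 higher (27.3%, against 3.81% of all genes), PKM at 0.95, ALDOA at 0.76 and PFKM (muscle phosphofructokinase) at 0.59. Snail had ENO1 (enolase) higher at 0.83 and SLC2A3 lower at -0.95. Each is 9.09% of the list, against 2.15% of all genes higher and 5.07% lower in Snail. The medians of the list were -0.04 in Snail, 0.20 in Slug and 0.03 in E47.

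Of 6 citric acid cycle and pyruvate dehydrogenase genes, Snail had DLD (the E3 subunit shared by the oxo-acid dehydrogenases) lower at -0.51. Slug had PDK2 (a kinase that inhibits pyruvate dehydrogenase) higher at 0.77. Each is 16.7% of the list, against 5.07% of all genes lower in Snail and 12.2% higher in Slug. Of 4 carriers and channels, SLC25A1, the citrate carrier, was lower in Snail (-0.52) and higher in Slug (0.54), and UCP2 was higher in Slug (0.49). POLRMT, the mitochondrial RNA polymerase, was called at 0.48 and LONP1, a matrix protease, at 0.50 in Slug, each the only call in its list. SOD1, a superoxide dismutase, was lower in Slug at -0.46. E47 had no call in these lists. At an unadjusted limma p under 0.05 in E47 were 3 of the 6 citric acid cycle and pyruvate dehydrogenase genes, and 811 of 3966 genes over all genes tested.

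**Figure D4:**
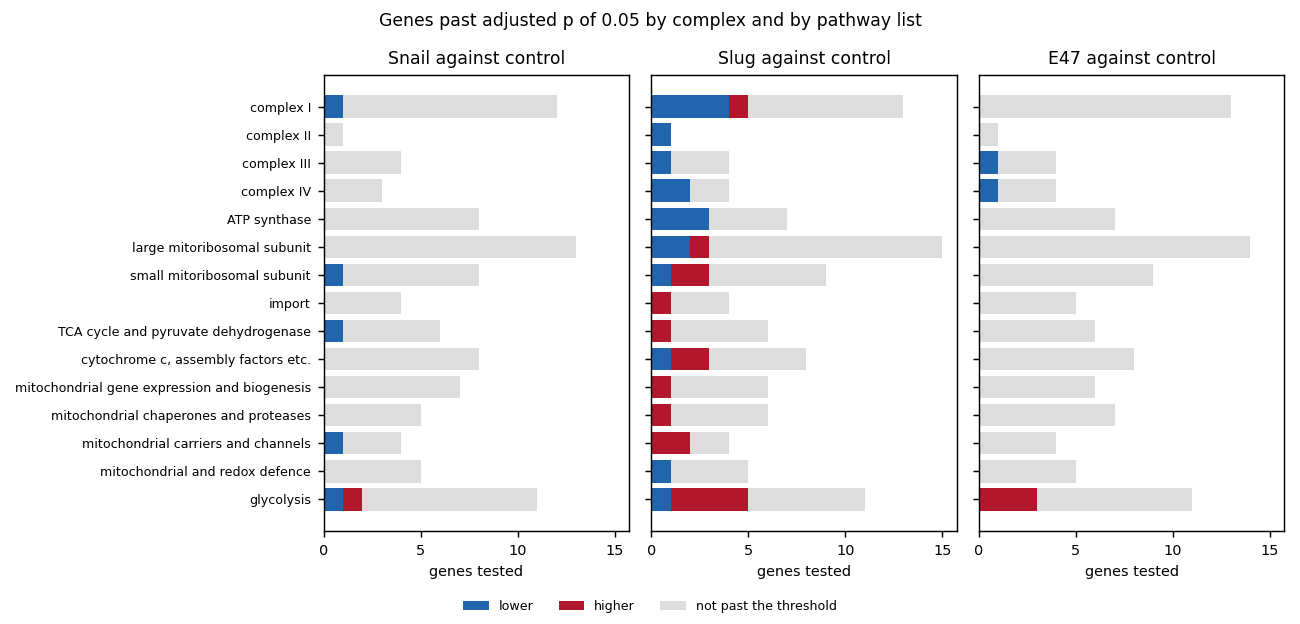
Number of genes tested (horizontal axis) in each complex or ribosomal subunit and in each list of other energy genes (rows), in panels for Snail, Slug and E47 against the control; blue is lower, red is higher and grey is not past the adjusted p of 0.05. In Slug, blue takes 4 of 13 complex I genes and 3 of 7 ATP synthase genes, and red takes 4 of 11 glycolysis genes. Over all genes tested in Slug, 9.62% were lower and 12.2% higher.

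Markers of cell type could be read only as ratios, so the epithelial identity of the cells was not checked by level. Of the epithelial markers, 4 of 8 were lower in Snail, 4 of 9 lower and 1 higher in Slug, and 3 of 8 lower in E47, and CDH1, which set the signs, is among them. Mesenchymal markers were higher for 4 of 7 in Snail, 3 of 8 in Slug and 5 of 9 in E47, with 1 lower in Snail. The Slug samples stood apart in SPARC, at 4.17 in sample 1 and -0.67 in sample 2, and in CALD1, at 1.96 in sample 1 and -0.64 in sample 2. Over all genes tested, 5.07% were lower in Snail, 9.62% in Slug and 1.49% in E47. The shares higher were 2.15%, 12.2% and 3.81% in the same order. The marker counts were not compared with these shares by a test. Leukocyte markers were lower for 1 of 6 in Snail and 3 of 6 in Slug (CD74, ITGAX and PTPRC) and for none of 6 in E47. The part of these shifts in the mitochondrial genes was not tested. All probes are human cDNA and the RNA is dog, and how well each dog transcript binds its probe is not part of the ratio values.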

How the data were processed

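The deposited table holds, for 13056 probes on 12 arrays, log2 ratios of the 2 channels, which the authors had already centred, with array medians between -0.0634 and 0.0594. The base is read from the values: those below -0.5, taken as powers of base 2, were whole thousandths in 100% of cases (tolerance 6e-05 on the log2 scale). Scanner, background correction and filter: not given in the sources used here. Probes with 1 symbol in the platform annotation were used, and 7 probes that name one of the 66 genes together with another gene were left out. Spots of a clone were averaged, then clones of a gene (16 of the 66 genes had several probes, 2 several clones); 61 of 66 symbols matched the dog RefSeq gene table.

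limma 3.58.1 in R 4.3.3 fitted all 3 transfectants without an intercept (prior degrees of freedom 4.85, prior SD 0.203, residual degrees of freedom 3 where no value was missing), two-sided, with Benjamini-Hochberg adjustment over all genes tested; the script was tested on simulated data. If the control RNA was 1 pool, which the labels do not say, a ratio tested against 0 leaves out the control's own spread. Genes, lists and tests were chosen with earlier results of these data known. Array values are given for genes called in any comparison and for the 3 largest means per transfectant on 1 side of 0 on all 4 arrays. Deviations of equally numbered samples from their group means correlated with r = 0.02 (Snail and Slug), 0.23 (Snail and E47) and -0.06 (Slug and E47), so the numbers were not treated as pairs.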

Additional observations from a re-analysis of the deposited data

Results flagged for a closer look

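In 17 genes the effect against the control differed between Snail and Slug by the limma test of the difference itself. The difference, Snail minus Slug on the log2 scale, was 0.87 for NDUFA1, 0.87 for NDUFB3, 1.15 for NDUFB4 and 1.09 for NDUFS1 in complex I, 1.48 for SDHD in complex II, 0.86 for UQCRQ in complex III, and 1.19 for COX6B1 and 1.48 for COX7A2 in complex IV. In ATP synthase it was 0.67 for ATP5MC2, 0.76 for ATP5MF, 0.73 for ATP5MJ and 1.13 for ATP5MK. Among the ribosomal genes it was 1.81 for MRPL1, 1.40 for MRPS10, -1.12 for MRPS16, -1.49 for MRPS30 and -0.61 for MRPL20-AS1. Snail and E47 differed by the same test in COX7A2, by 0.98. These values hold for the assumed signs; with the sign of Snail turned, COX7A2, MRPS10, SDHD and UQCRQ still differed from Slug, and COX7A2 no longer differed from E47.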

How the results depend on the processing

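As reported, 2, 20 and 2 genes were called in Snail, Slug and E47 against the control, 17 between Snail and Slug, 1 between Snail and E47 and 0 between Slug and E47. In Snail against the control the count was 0 on the arrays titled Cy5 or Cy3 alone, 4 (2 higher, 2 lower) with arrays scaled to 1 spread, 1 with probes valued on all arrays, 9 (7 higher, 2 lower) with the numbered sample as a random block, 10 (6 higher, 4 lower) with Snail alone in the fit and 0 to 2 without one replicate. In Slug it was 7 on the Cy3 arrays, 11 when scaled (2 higher, 9 lower), 11 with Slug alone and 5 to 17 without one replicate. In E47 it was 0 on the Cy3 arrays, 7 with the random block, 5 with E47 alone and 0 to 4 without one replicate. Between Snail and Slug it was 3 on the Cy3 arrays, 9 when scaled, 7 with the sign of Snail turned and 3 to 16 without one replicate. Between Snail and E47 it was 0 on the Cy5 or the Cy3 arrays, 3 when scaled, 2 with all-array probes, 2 with probe medians, 9 with the random block, 2 with only these groups, 2 with the sign turned and 0 to 2 without one replicate. Between Slug and E47 it was 4 with the random block, 18 with the sign of Slug turned and 0 without one replicate. The replicate block, which shares only a number between samples, gave 3, 17, 3, 17, 2 and 0 calls in the same order of comparisons. Calls over all genes moved as well. In Snail against the control they were 272 of 3768 as reported, 585 with the random block and 568 with Snail alone. In Slug they were 885 of 4053 as reported, 372 of 4064 on the Cy3 arrays and 436 of 4053 when scaled. Between Snail and Slug they were 486 of 3675 as reported and 671 with the sign of Snail turned. The causes of these shifts were not tested, except that leaving out a replicate leaves fewer samples; the lone sample is then assumed to vary like the other groups. The median ratio was -0.064 in Snail and -0.19 in E47 on the Cy3 arrays, and without one replicate it ran from -0.059 to 0.16 in Snail, -0.25 to -0.14 in Slug and -0.12 to -0.06 in E47. With signs turned it was -0.034 in Snail, 0.13 in Slug and 0.10 in E47. Leaving out the E47 2 array titled Cy5, an alternative chosen after seeing the data, gave 2, 18, 2, 13, 1 and 0 calls. No call of a single gene reversed under an alternative, sign turning aside. The ratios carry no brightness, so dim probes could not be filtered.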

Other observations

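Some values belong to genes or transfectants without both replicates. SDHA, the flavoprotein of complex II, had 1.91 on the 1 Snail array with a value, -0.61, -1.39 and -0.45 on 3 Slug arrays and -0.45 on 1 E47 array. NDUFA13 in Snail had 1.54 and 1.56 on the arrays of sample 2, while sample 1 had no value. COX8A in Snail had 0.19 and 0.21 on the arrays of sample 1. MRPL22 in Snail had 0.46 and 0.35 on the arrays titled Cy5 and no value on the others.

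Samples of 1 transfectant lay far apart in a few genes that were not called. TIMM10 in Snail had -0.33 and -0.91 in sample 1, and 0.82 and 0.41 in sample 2. MRPL48 in Slug had -0.18 and -0.49 in sample 1, and 0.70 and 0.66 in sample 2. MRPS35 in E47 had -0.85 and 0.14 in sample 1, and -1.25 and -1.42 in sample 2.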
